A study of Homo sapiens with 6 samples.

Results

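The BCL2 family genes described here are 10 named regulators of mitochondrial apoptosis, chosen by gene symbol: the pro-survival genes BCL2, BCL2L1, BCL2L2 and MCL1, the effectors BAX and BAK1, and the BH3-only genes BID, BCL2L11, PMAIP1 and BBC3. Every probe set that the platform annotation gives to 1 of these genes alone was taken, which made 31 probe sets for 9 genes out of 19775 genes on the array. BBC3, which encodes PUMA, has no value here, because its probe set also names 2 microRNA genes. A further probe set that names BCL2L2 together with other genes was left out for the same reason. The study transfected SKOV3, an established ovarian cancer cell line that its labels call high-grade serous, for 24 h with miR21 precursor (5 nM, 3 arrays) or, in the control group, with a precursor microRNA that serves as negative control (3 arrays). Both groups were thus transfected, and untransfected cells were not analysed here. No dose is recorded here for the control precursor, so equal doses cannot be assumed. The labels name no taxane treatment for these samples, although the title of the series concerns Taxol resistance and APAF1. The titles number the samples of each group from 1 to 3 without saying whether these are separate cultures, so a p-value reflects the spread among these 6 arrays, which could be technical.

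BCL2 family proteins decide whether the outer mitochondrial membrane is opened. The effectors BAX and BAK1 form the pores that release cytochrome c, the pro-survival proteins hold them back, and the BH3-only proteins bind pro-survival partners or activate the effectors directly. Taxanes arrest cells in mitosis, where the balance of MCL1, BCL2L1 and the BH3-only proteins is known to influence survival. miR-21 is a microRNA that represses messenger RNAs paired with its seed and is widely described as anti-apoptotic.

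The agent added to the cells is shown first, as the mature strand in RefSeq (GRCh38.p14, chr17:59841273-59841294, plus strand), with the seed, bases 2 to 8, in capitals.
hsa-miR-21-5p: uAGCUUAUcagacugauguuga
The deposited labels do not give the precursor's own sequence, and the level of miR-21 in the cells was not analysed here.

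The arrays of replicate number 1 stood apart from the others. Their median signals were 117 (miR21) and 125 (control), while the other 4 arrays lay between 55.2 and 61.8, and the first principal component, which set them apart from the rest, carried 65.5% of the variance. The 3-prime over 5-prime signal ratio of ACTB, a sign of RNA quality, was 1.96, 3.32 and 1.36 on the miR21 arrays of numbers 1, 2 and 3. It was 1.79, 2.89 and 1.29 on the control arrays, so it differed between numbers more than between groups. The same ratio of GAPDH was 1.07, 0.95 and 0.92 on the miR21 arrays and 1.07, 0.90 and 0.94 on the control arrays. Markers of the ovarian epithelial line passed the filter for 7 of 9 genes, with a summed signal of 58585 to 86917 on miR21 arrays and 49978 to 93687 on control arrays. The 2 below the signal filter described next were WT1 and MUC16, both used as markers of serous ovarian tumours: WT1 read 42.2 to 58.0 on miR21 arrays and 41.6 to 71.5 on control arrays, while MUC16 read 3.12 to 8.60 on miR21 arrays and 13.2 to 27.3 on control arrays. Of the other cell types, 1 of 4 fibroblast genes (COL1A1), 0 of 3 leukocyte genes and 1 of 2 endothelial genes (PECAM1) passed the filter. Their summed signals were 167 to 1063, 19.6 to 123 and 60.4 to 454 on miR21 arrays, against 256 to 869, 60.3 to 201 and 65.1 to 494 on control arrays. PECAM1 passed through number 1 alone. It read 397 (miR21) and 483 (control) there, but 22.3 to 53.4 on the other 4 arrays, each under the filter.

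No member of the family passed the test between the precursors. Probe sets were tested with limma on the log2 signal when their mean over the 6 arrays was at least log2 6.03 (signal 65.5), the middle value of such means, and a call is a Benjamini-Hochberg adjusted p under 0.05 over all 27307 probe sets tested. Of the 31 probe sets, 25 from all 9 genes were tested, and limma called 0 of them, against 0% of all probe sets tested. At an unadjusted p under 0.05 the counts were 0 of 25 members and 1.95% of all. The adjusted p of each of the 25 was 0.99999. When replicate number entered limma as a block, 0 members were again called, against 0.0183% of all probe sets, and 5 of 25 had an unadjusted p under 0.05, against 17.7% of all. Of the 5, 4 were higher with miR21 (8.15% of all) and 1 was lower (9.58% of all). The mean difference was above 0 in 12 of the 25 tested probe sets (48%, against 45.9% of all tested) and in 17 of all 31 (54.8%, against 46% of all probe sets). In bulk RNA, fewer cells with a transcript and less of it per cell cannot be told apart. A log2 difference below is always the mean of the 3 miR21 arrays minus the mean of the 3 control arrays.

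Read by 1 probe set a gene, the BH3-only members had the highest median difference of the 3 classes, with PMAIP1 and BCL2L11 above 0 and BID close to it. The median log2 difference was 0.69 for the 3 measured BH3-only genes, 0.08 for the 2 effectors and 0.03 for the 4 pro-survival genes, each gene read by its probe set of highest mean signal. The BH3-only median was 0.44 when the probe sets of each gene were averaged, and 0.28 over the 10 BH3-only probe sets above the filter. BH3-only genes outside the named 10 lay on both sides of 0 at their brightest probe sets, with -0.25 for BIK, -0.11 for BAD, 0.09 for HRK and 0.15 for BMF. The median over all 12206 genes above the filter was -0.01. Within replicate numbers 1, 2 and 3 the BH3-only median was 0.92, 0.60 and 0.03, the effector median 0.41, -0.0039 and -0.17, and the pro-survival median -0.07, 0.22 and -0.06. These medians are descriptions of few genes, and the differences between classes were not tested. The effector and pro-survival medians changed sign when single arrays were left out, while the BH3-only median lay between 0.38 (without miR21 replicate 1) and 1.01 (without miR21 replicate 3).

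**Figure D1:**
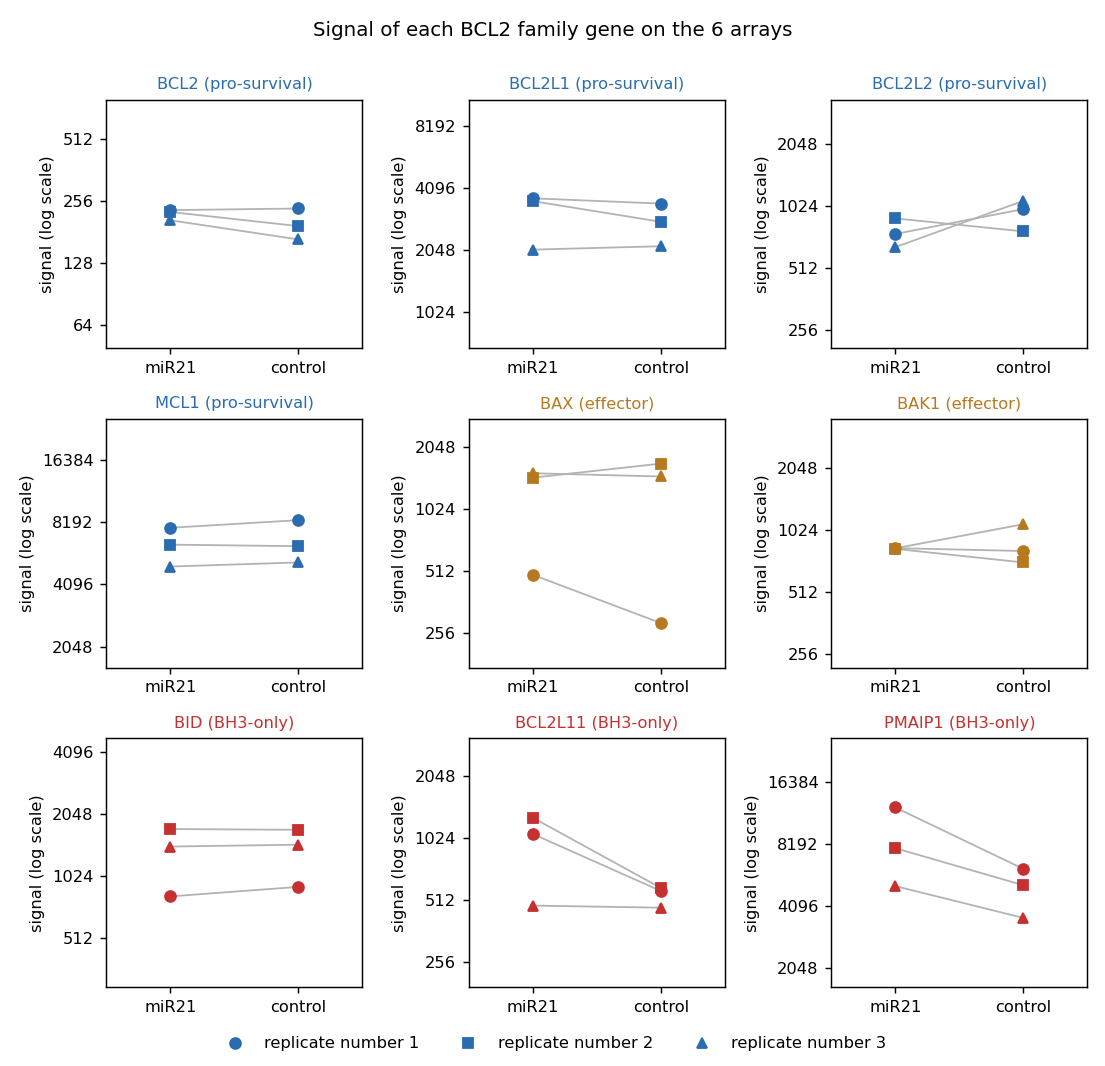
Signal of the 9 measured genes on each of the 6 arrays, on a log2-spaced axis that spans the same fold range in every panel, with miR21 left of control and a line joining arrays of the same replicate number. For PMAIP1 all 3 lines slope down towards control, and BAX shows both number 1 arrays below the rest.

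PMAIP1, which encodes NOXA, a BH3-only protein that binds MCL1 and favours its degradation, had the smallest p of the members under the block. Its brighter probe set (204285_s_at) read 12348, 7839 and 5137 on the miR21 arrays of numbers 1, 2 and 3, against 6220.3, 5185 and 3599 on the control arrays. Each miR21 array lay above the control array of its own number, but the groups overlapped, because miR21 replicate 3 lay below control replicates 1 and 2. The log2 difference was 0.70 (SE 0.39, n = 3 each in limma), a 1.62-fold higher mean, and it did not pass. It was 0.38 without miR21 replicate 1 and 1.01 without miR21 replicate 3. Under the block its SE was 0.15, with an unadjusted p of 0.00176 and an adjusted p of 0.130 in limma. By exact permutation, two-sided, p was 0.3, where 0.1 is the lowest value that groups of 3 allow. The second probe set (204286_s_at) read 7156, 3623 and 725 with miR21 and 2772, 2014 and 620.2 with control, a log2 difference of 0.81 (SE 0.89, or 0.22 under the block, adjusted p = 0.154 in limma). Both probe sets thus ran the same way in all 3 numbers, with the smallest gap in number 3, where the second probe set differed by 0.23.

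BCL2L11 encodes BIM, a BH3-only protein that can bind every pro-survival member and activate BAX. It was read by 7 probe sets, and all 7 had a log2 difference above 0, from 0.02 to 0.81. In 4 of the 7 the miR21 array was the higher one in every replicate number. The probe set of highest signal (225606_at) read 1067, 1279 and 479.7 with miR21 and 564, 584 and 469 with control. Numbers 1 and 2 differed by 0.92 and 1.13 on the log2 scale and number 3 by 0.03, and the mean of 0.69 did not pass (SE 0.42 and adjusted p = 0.99999 in limma, or SE 0.24 and adjusted p = 0.208 under the block). It was 0.41 without miR21 replicate 2, 1.12 without miR21 replicate 3, and 0.44 as the mean over all probe sets of the gene. A second probe set (1558143_a_at) read 343, 269 and 279 with miR21 and 296, 123 and 131 with control, a log2 difference of 0.81 (SE 0.44, or 0.28 under the block, adjusted p = 0.207 in limma). Here number 1 had the smallest gap (0.21) and number 3 one of 1.09, so these 2 probe sets of the gene differed in which replicate had the smallest gap. Of the dimmest probe sets, 208536_s_at was the only member probe set with every miR21 array above every control array, with signals of 50.6, 42.0 and 32.3 with miR21 against 25.3, 22.2 and 24.99 with control. It lay below the filter, as did 222343_at (85.1, 64.2 and 67.3 with miR21, and 64.7, 58.4 and 56.5 with control), whose mean was just under the threshold. The remaining 3 probe sets differed by 0.24 (1553096_s_at), 0.32 (1555372_at) and 0.02 (1553088_a_at), and the last was -0.11 without both arrays of number 1 and -0.042 without both of number 2.

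BID encodes the BH3-only protein that caspase-8 cleaves to carry a death receptor signal to mitochondria. Its 3 probe sets all had a log2 difference below 0. The brightest (211725_s_at) read 818, 1736 and 1427 with miR21 and 910.0, 1720.2 and 1457 with control. The difference was -0.06 (SE 0.40, or 0.15 under the block, in limma). The other probe sets differed by -0.31 (227143_s_at) and -0.38 (204493_at). The second of them read 352, 1084 and 981 with miR21 against 599, 1253 and 1093 with control, lower in all 3 numbers. The SE of 204493_at was 0.52, or 0.19 under the block, with an adjusted p of 0.335 under the block in limma. The direction at the brightest probe set was not stable: the difference was 0.043 with arrays centred on their median, 0.26 without miR21 replicate 1, 0.14 without control replicate 2 and 0.017 without control replicate 3.

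**Figure D2:**
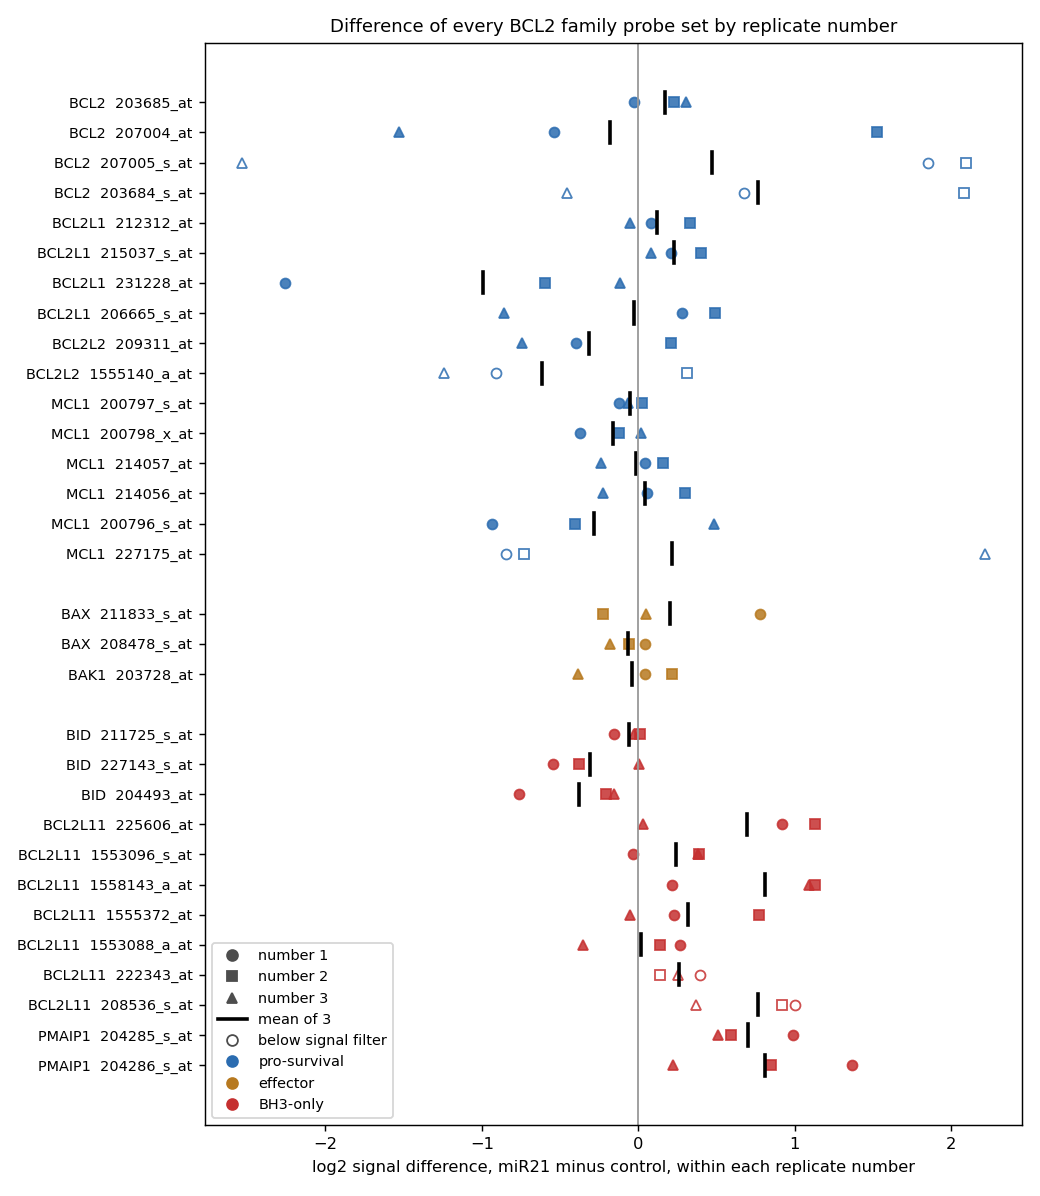
Log2 signal difference, miR21 minus control, within each replicate number for all 31 probe sets, with the mean as a black bar and open symbols for probe sets below the signal filter. All 7 BCL2L11 and both PMAIP1 probe sets have means above 0, and all 3 BID probe sets have means below 0.

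Among the pro-survival genes, MCL1 encodes a short-lived protein on which many solid tumour cells depend. Its brightest probe set (200797_s_at) read 7712, 6390.1 and 5005 with miR21, against 8399, 6281 and 5239 with control. The log2 difference was -0.05 (SE 0.30, or 0.13 under the block), and the ranges of the groups overlapped. The other 4 MCL1 probe sets above the filter differed by -0.29 to 0.04, and 227175_at, below the filter, by 0.21. BCL2L1, which encodes BCL-XL, read 3658, 3545 and 2064 with miR21 and 3449, 2815 and 2143 with control at its brightest probe set (212312_at). The log2 difference was 0.12 (SE 0.34, or 0.15 under the block).

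The BCL2L1 probe set 231228_at stood apart from the rest of the gene. It read 77.3, 141 and 198 with miR21 and 369, 213 and 214 with control, so every miR21 array lay below every control array. It was the only one of the 25 tested probe sets without overlap of the groups, against 6.29% of all probe sets tested in either direction, 3.47% lower and 2.82% higher with miR21. With BCL2L11 208536_s_at, 2 of all 31 did not overlap, against 5.5% of all probe sets. The log2 difference of 231228_at was -0.99 (SE 0.48, adjusted p = 0.99999 in limma, and 0.264 under the block), with -2.26, -0.60 and -0.12 in numbers 1, 2 and 3. The other BCL2L1 probe sets differed by 0.23 (215037_s_at) and -0.03 (206665_s_at), so the direction for this gene depends on the probe set, and which transcript 231228_at reads was not analysed here.

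BCL2 is the founding pro-survival gene. Its brightest probe set (203685_at) read 232, 227 and 207 with miR21 and 236, 194 and 167 with control. The log2 difference was 0.17 (SE 0.34, or 0.24 under the block, in limma). The other 3 BCL2 probe sets had means below or close to the filter and differed by -0.18, 0.47 and 0.77, each with both signs among the 3 numbers. BCL2L2, which encodes BCL-W, read 750.0, 892 and 648 with miR21 and 990.0, 772 and 1085 with control (209311_at). Its log2 difference was -0.31 (SE 0.30, or 0.21 under the block). The miR21 array was higher in number 2 and lower in numbers 1 and 3. Its second probe set, below the filter, differed by -0.61.

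The effectors did not differ by more than their SE, with or without the block. BAK1 read 835, 828 and 834 with miR21 and 809, 712 and 1090.5 with control. The log2 difference was -0.04 (SE 0.30, or 0.18 under the block, in limma). BAX read 490.2, 1449.9 and 1523 with miR21 and 286, 1696 and 1469 with control at its brighter probe set (211833_s_at). The difference was 0.20 (SE 0.76, or 0.21 under the block). At the other (208478_s_at) BAX read 227, 942 and 891 with miR21, against 220.4, 983 and 1011 with control. The difference was -0.07 (SE 0.77, or 0.18 under the block). The sign for BAX therefore depends on the probe set. Both probe sets showed the 2 arrays of number 1 far below the other 4, under either precursor.

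The variation between replicate numbers was set beside the difference between precursors. A range over 3 means of 2 arrays tends to exceed a difference of 2 means of 3 arrays even where neither factor acts, so the count that follows is a description. The range of the 3 number means exceeded the absolute difference between precursors in 22 of the 25 tested probe sets (88%), against 89.2% of all probe sets tested. The exceptions were BCL2L1 231228_at, BCL2L2 209311_at and BCL2L11 1558143_a_at. An F test for the replicate number in the limma block fit, added after the data were seen, called 13 of the 25, against 50.6% of all probe sets tested, so the family is near the background here. BAX varied by 2.07 and 2.10 log2 units between numbers (adjusted p = 0.00109 and 0.000511), BID by 0.89 to 1.34 and the second PMAIP1 probe set by 2.73 (adjusted p = 0.000584). BAX and BID were lowest in number 1 under both precursors, whereas both PMAIP1 probe sets and the MCL1 probe set 200798_x_at (3641, 1504 and 1115 with miR21, and 4717, 1635 and 1103 with control) were highest there. The part of the higher median signal and of the RNA quality ratios of these arrays in this pattern was not tested.

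**Figure D3:**
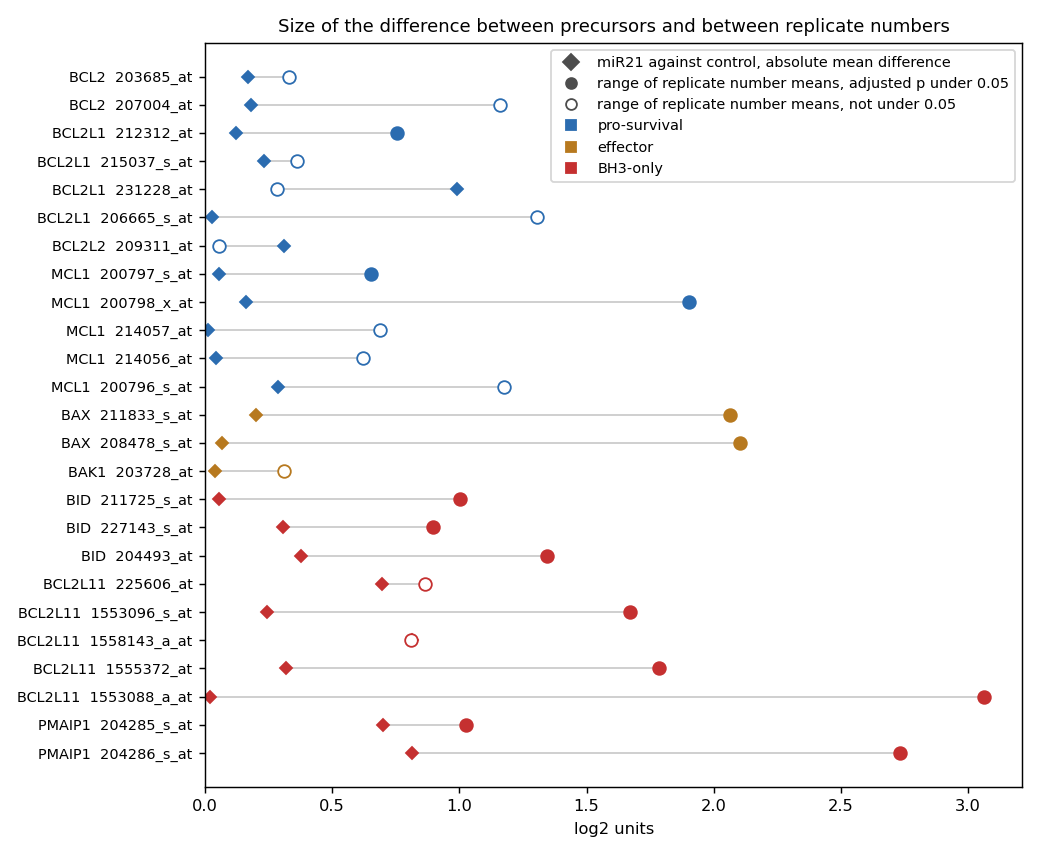
For the 25 tested probe sets, the absolute mean log2 difference between miR21 and control (diamonds) and the range of the 3 replicate number means (circles, filled where the F test for replicate number had an adjusted p under 0.05). The circle lies to the right of the diamond in 22 of 25, most widely for BCL2L11 1553088_a_at. That probe set read 299 (miR21) and 248 (control) in replicate number 1, but 28.9 to 55.4 on the remaining arrays, each under the signal filter. Its mean passed the filter through number 1 alone, so neither its range nor its F test is independent of that selection.

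The direction within each replicate number was also counted. Of the 31 probe sets, 7 were higher with miR21 in all 3 numbers (22.6%, against 14.4% of all probe sets), and 2 were lower in all 3 (6.45%, against 18.1%). Among the 25 tested, these counts were 5 (20%, against 18% of all tested) and 2 (8%, against 21.3%). The 7 were the 4 of BCL2L11, both of PMAIP1 and BCL2L1 215037_s_at, and the 2 were BCL2L1 231228_at and BID 204493_at. Probe sets of 1 gene share its transcript and are not independent.

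The count of calls rose when both arrays of replicate number 3 were left out, but the shrinkage of the fit changed as well. Both PMAIP1 probe sets and the brightest BCL2L11 probe set had their smallest differences in number 3. The part of either in the count was not tested. Without both arrays of number 3, the limma block fit called 6 of the 25 tested probe sets (24%), against 26.5% of all. Of the 6, 3 were higher with miR21 (11.7% of all) and 3 lower (14.8% of all). They were PMAIP1 204285_s_at (log2 difference 0.79, adjusted p = 8.94e-07) and 204286_s_at (1.11, 1.06e-12), BCL2L11 225606_at (1.02, 5.49e-07), BID 227143_s_at (-0.46, 0.0365) and 204493_at (-0.49, 0.0421), and BCL2L1 231228_at (-1.43, 0.000449). This fit has 1 residual degree of freedom, and its shrinkage replaced each probe set's own spread by that of probe sets of like signal, so these p-values do not measure the spread of the single gene. Without number 1 the same fit called 0 members (0.205% of all probe sets, 0.106% higher and 0.0989% lower), and without number 2 it called 0 (0% of all). PMAIP1 204285_s_at then differed by 0.55 and 0.75, and BCL2L11 225606_at by 0.58 and 0.48.

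The other BCL2 family genes were read by their brightest probe sets. Of 13 listed, 10 lay above the filter, limma called 0 of them with or without the block, and 0 had an unadjusted p under 0.05 under the block. Their log2 differences ran from -0.25 to 0.15, with 7 above and 3 below 0. The lowest was the BH3-only gene BIK (869, 1268 and 758 with miR21, and 1369, 1271 and 811 with control) and the highest BMF, a BH3-only gene tied to the cytoskeleton (254, 151 and 44.2 with miR21, and 197, 121 and 52.3 with control). The BH3-only gene BAD differed by -0.11 and the BAX-like gene BOK by -0.20. HRK, a further BH3-only gene, had 4 probe sets above the filter, with log2 differences of -0.55 to 0.70, and 0.09 at its brightest. BCL2A1, BCL2L10 and BCL2L14 lay below the filter.

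At their brightest probe sets, transcription factors reported to act on BCL2L11, PMAIP1 or BBC3 ran from -1.22 to 1.87 in log2 difference. The 9 members, read the same way, ran from -0.31 to 0.70, and all their tested probe sets from -0.99 to 0.81. Of 9 factors listed, 8 were above the filter, and limma called 0 with or without the block. Under the block 6 had an unadjusted p under 0.05 in limma, against 17.7% of all probe sets tested. The list was chosen with earlier results of these data known, so this count cannot be weighed against that share. E2F1, a factor of S phase entry, read 268, 386 and 625 with miR21 and 803, 991 and 1026 with control, a log2 difference of -1.22 (SE 0.38, or 0.21 under the block, adjusted p = 0.0979 in limma). The AP-1 gene JUN differed by -1.09 (SE 0.41), CEBPB by 1.00 (SE 0.46) and FOXO1 by 1.05 (SE 0.50), each least in number 3. In numbers 1, 2 and 3 the differences were -1.59, -1.46 and -0.20 for JUN and 1.33, 1.37 and 0.30 for CEBPB. For FOXO1 they were 1.32, 1.55 and 0.27. FOXO1, a factor restrained by AKT, read 1472, 3271 and 964 with miR21 and 588, 1115 and 799 with control. FOXO3, on the same list but outside the naming rule, went the other way. It differed by -0.24 (SE 0.32), with -0.19, -0.43 and -0.10 in numbers 1, 2 and 3. DDIT3, which encodes the stress factor CHOP, also lies outside the naming rule, and both were picked once their values had been seen. DDIT3 read 9112, 17572 and 725 with miR21 and 1552, 2489 and 618 with control, with differences of 2.55, 2.82 and 0.23 in numbers 1, 2 and 3.

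Of the genes listed for MCL1 turnover, 8 of 9 lay above the filter, with log2 differences of -0.42 to 0.46 and 0 limma calls with or without the block. CUL5, a ubiquitin ligase scaffold, was the highest, with 3448, 2444 and 2439 with miR21 against 2212, 2072 and 1729 with control. The log2 difference was 0.46 (SE 0.29, or 0.15 under the block, where adjusted p = 0.197 in limma). Its groups did not overlap, as for 2.82% of all probe sets tested, counting those higher with miR21. The mitotic activator CDC20 was the lowest at -0.42. USP9X, a deubiquitinase that stabilises MCL1, differed by 0.19, and FBXW7, a ligase subunit that targets MCL1, by 0.15. All 11 genes of the mitochondrial pore and release list were above the filter, with a median of 0.02 and 0 limma calls with or without the block. APAF1, the apoptosome scaffold, read 157, 26.3 and 82.0 with miR21 and 432, 98.3 and 113 with control at its brightest probe set, a log2 difference of -1.28 (SE 0.84, or 0.37 under the block, adjusted p = 0.170 in limma). The channel gene VDAC1 differed by -0.27, CASP9, the initiator caspase of the apoptosome, by 0.40, and CYCS, the cytochrome c gene, by 0.14.

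**Figure D4:**
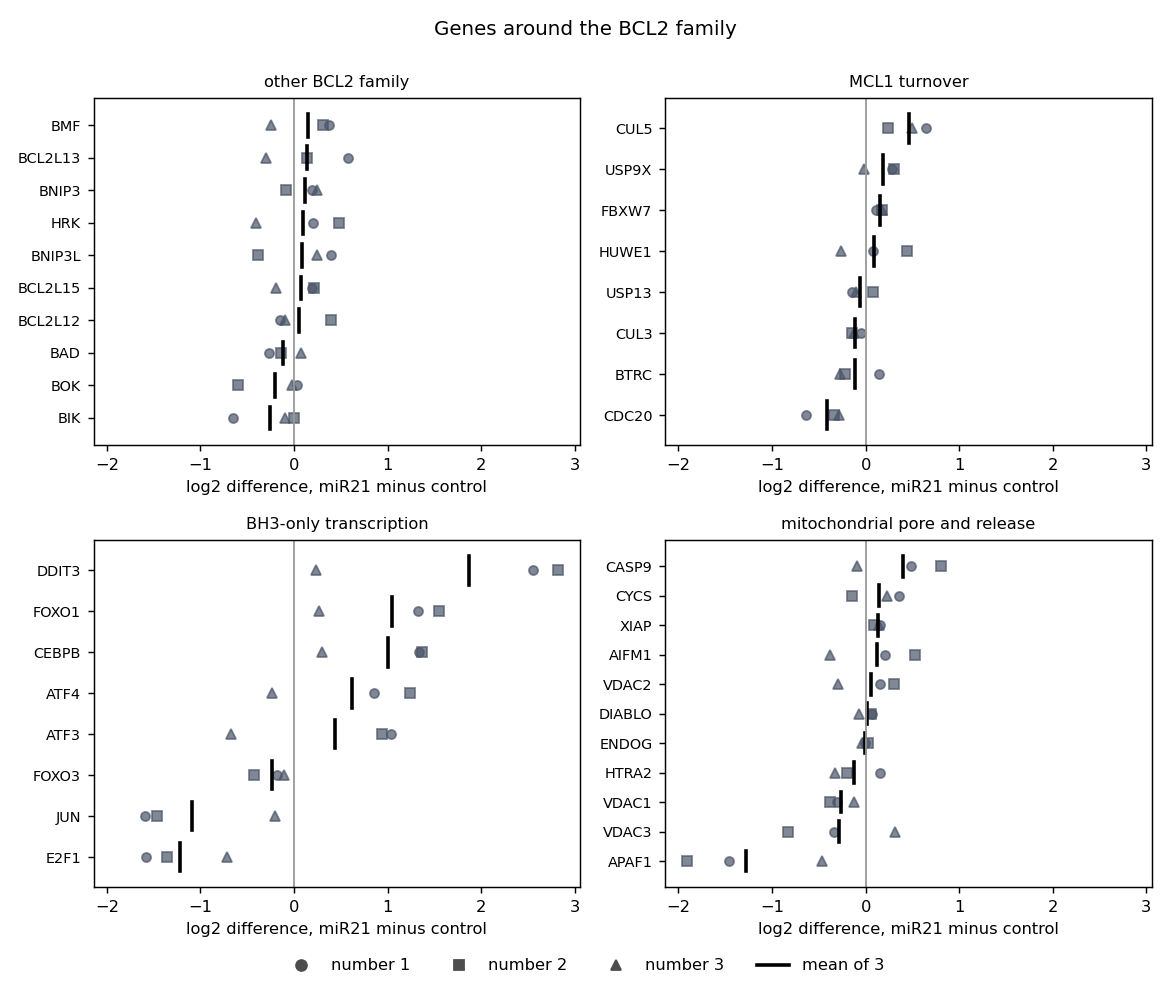
Log2 difference, miR21 minus control, within each replicate number (symbols) and on average (black bars) for genes above the filter in 4 surrounding lists. The other BCL2 family genes stay between -0.25 and 0.15 on average, while the factors reported to act on BH3-only genes run from -1.22 (E2F1) to 1.87 (DDIT3).

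The upstream sequences of PMAIP1 and BCL2L11 are shown because these 2 genes had the highest differences among the tested probe sets of the family and the transcription list holds factors with known DNA motifs. Each is a RefSeq window of 300 bases (GRCh38.p14), from 250 before the gene's start to 50 from it, with the matched motif in capitals. The PMAIP1 window is chr18:59899746-59900045 on the plus strand, with TGACGT, a short form of the cAMP response element, matched on the other strand at 56 to 51 bases before the start. The BCL2L11 window is chr2:111120664-111120963 on the plus strand, with GTAAACA, a FOXO motif, at 223 to 217 bases before the start.
PMAIP1: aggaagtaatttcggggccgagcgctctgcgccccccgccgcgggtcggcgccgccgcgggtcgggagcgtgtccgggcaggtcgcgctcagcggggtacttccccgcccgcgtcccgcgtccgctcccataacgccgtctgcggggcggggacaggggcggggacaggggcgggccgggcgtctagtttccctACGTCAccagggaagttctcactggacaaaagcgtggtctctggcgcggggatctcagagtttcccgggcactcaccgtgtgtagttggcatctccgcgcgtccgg
BCL2L11: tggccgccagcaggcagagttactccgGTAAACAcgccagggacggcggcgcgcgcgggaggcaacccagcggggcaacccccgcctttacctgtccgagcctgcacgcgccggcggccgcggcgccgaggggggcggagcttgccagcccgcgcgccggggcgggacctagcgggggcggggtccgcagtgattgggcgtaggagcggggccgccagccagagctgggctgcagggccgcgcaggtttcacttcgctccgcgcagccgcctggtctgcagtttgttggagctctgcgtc
Of 35116 such windows, 7.98% hold TGACGT and 3.42% hold GTAAACA on either strand. Windows were found for 8 of the 10 members, 13 windows in all, and those of BCL2L2 and MCL1 were not used here. Of these 13, TGACGT matched 1 and GTAAACA matched 1, the windows printed. The other 3 motifs searched, on both strands, matched 0 of the 13: TGACGTCA, the full response element that contains TGACGT (1.85% of all windows), TGATGCAA, a C/EBP-ATF composite (0.866%), and TTTGGCGC, an E2F motif (0.652%). A match is only a run of letters in this window.

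The genes most like a member over the 6 arrays were sought for the member of each class with the largest absolute difference, by Pearson's r of log2 signal among 12205 genes, given as a description of 6 arrays that fall apart by replicate number. For PMAIP1 they were CSRNP2, RNF145 and RP9, with r between 0.992 and 0.994, and 3.05% of all genes had an r above 0.9 with PMAIP1. For BAX they were SRD5A1, FCSK and FKBP11, each with r between 0.994 and 0.996, and 11.3% of all genes had an r above 0.9 with BAX. For BCL2L2 they were ORAI1, CAPN12 and ND2, with r between 0.941 and 0.995, and 0.0492% of all genes had an r above 0.9 with BCL2L2.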

How the data were processed

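RNA from 6 SKOV3 samples was measured on U133 Plus 2.0 arrays. The deposited values are intensity signals on a linear scale, produced by the authors with MAS5, per the submitters' processing notes; its version is not given in the sources used here. Among 54675 probe sets there are 62 controls. Each array's mean after trimming 2% at both ends is close to 500, so a change common to most genes is not visible. Of the other 54613 probe sets, 41091 carry 1 gene name in the platform annotation, 1801 carry several and 11721 carry none. The number of arrays limits the precision.

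Log2 signals, with no pseudocount, were compared in limma 3.58.1 (R 4.3.3; moderated with a variance trend) over 27307 probe sets, and p-values were adjusted by Benjamini-Hochberg over all of these. The steps were tested on simulated data. The members and gene lists were chosen with earlier results of these data known. The text names all members with every probe set, any tested gene of the other family list, and from each further list up to 4 genes of smallest p without the block. DDIT3 and FOXO3 are the exceptions.

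Replicate numbers were read from the titles of the samples. Deviations of same-numbered arrays from their group means correlated at 0.878, 0.643 and 0.630, and those of differently numbered arrays between -0.704 and 0.349. Between numbers 2 and 3 the values were 0.247 and 0.349. Deviations from a mean of 3 arrays sum to 0, which lowers the values between numbers where same-numbered arrays are alike. The contrast is thus limited evidence of pairing. The numbers were taken as pairs in the block fit only, and the fit without the block leaves them out. Block values are given for part of the probe sets. Unless marked as under the block, an SE is from the fit without it. Alternatives were the block, other scalings (quantile, centring on the median, adding 16 before log2), other filters, no trend, array weights, the mean of a gene's probe sets and leaving out arrays.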

Additional observations from a re-analysis of the deposited data

How the results depend on the processing

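Over all probe sets limma called 0 without the replicate block, 5 with it, 10 with it on log2 of the signal plus 16, 0 with it after quantile normalization and 0 with it without a variance trend (the last 3 added after the data were seen), and between 0 and 7243 when both arrays of one number were left out under the block (56 without number 1, 0 without number 2, 7243 without number 3). The family count stayed at 0 except when arrays were left out, where it ran from 0 to 6, the 6 being the replicate block without number 3. At their brightest probe sets PMAIP1 and BCL2L11 stayed above 0 under all alternatives run; BCL2L11 1553088_a_at did not. With single arrays or number pairs left out, the effector median ran from -0.35 to 0.35 (-0.086 without number 1 under the block), the pro-survival median from -0.13 to 0.21 (-0.040 without number 2 under the block) and the BH3-only median from 0.38 to 1.01. Likewise PMAIP1 ran from 0.38 to 1.01, BCL2L11 from 0.41 to 1.12, BAX from -0.62 to 0.73 (-0.087 without number 1 under the block), BAK1 from -0.17 to 0.13, BID from -0.32 to 0.26, MCL1 from -0.21 to 0.13 and BCL2L1 from -0.059 (without control replicate 3) to 0.39. Centring arrays on their median, which moves the median over all probe sets by 0.10, gave MCL1 0.045, BAK1 0.059 and BID 0.043. Array weights gave an effector median of -0.060, BAX -0.29 and BAK1 0.17. Averaging a gene's probe sets gave a pro-survival median of -0.10, a BH3-only median of 0.44, BCL2L11 0.44 and BCL2L1 -0.17. The cause was not tested.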
